A study of Homo sapiens with 6 samples.

Results

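The RNA-binding proteins known to shift the splice choice of Bcl-x, or closely related to those that do, were followed in PC-9 cells after knockdown (KD) of the splicing factor RBM10. They were KHDRBS1 (Sam68), its relative KHDRBS3, RBM25, RBM4, RBM11, TIA1 and TIAL1. All isoforms listed under these gene names were taken, which gave 7 of the 26334 genes and 14 of the 51398 RefSeq isoforms in the data. Of these, 5 genes and 12 isoforms passed the filter on low counts, and KHDRBS3 and RBM11 did not. PC-9 is an EGFR-mutant human lung adenocarcinoma line, here untreated and grown in serum-containing RPMI. It carried a scrambled control shRNA (shScr) or an shRNA against RBM10 (shRBM10#1 or shRBM10#2), with 2 RNA-Seq libraries of total RNA per condition. For the control, the methods of the study speak of parental PC-9 cells; the labels say shScr and were followed. Nothing states that the libraries of a condition came from separate cultures, so the tests measure the spread between libraries, which may be technical.

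BCL2L1, the Bcl-x gene, makes proteins of opposite effect from 1 pre-mRNA. Exon 2 can end at an upstream 5′ splice site, which gives the proapoptotic Bcl-xS, or at a downstream 5′ splice site, which gives the antiapoptotic Bcl-xL. KHDRBS1, RBM25, RBM4 and RBM11 are known to favor Bcl-xS in overexpression or depletion experiments, at least in some cells. TIA1 and TIAL1 bind U-rich RNA just after 5′ splice sites and help U1 snRNP to settle there. In bulk RNA, fewer cells that express a gene and less RNA per cell cannot be told apart.

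The sequences below mark the places where the isoforms described later differ, with the joined or inserted part identified by its position in GRCh38 (GENCODE 29). The deposited files were made on hg19, and no position was converted from it. The first is the 51-nt coding segment, 17 codons, at chr10:119582558-119582608 (minus strand), at the 5′ end of a TIAL1 exon. Isoform NM_001033925 keeps it and NM_003252 leaves it out. The capitals mark the AG that stands right before the splice acceptor used by NM_003252.
TIAL1 segment: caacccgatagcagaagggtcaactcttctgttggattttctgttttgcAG
The second is the 33-nt coding exon of TIA1, 11 codons, at chr2:70229059-70229091 (minus strand). The RefSeq isoforms NM_022173 (4653 nt) and NM_022037 (4620 nt) differ by that length. GENCODE 29 does not pair these identifiers with its transcripts, so the exon was found as the coding difference between its long TIA1 transcripts.
TIA1 exon: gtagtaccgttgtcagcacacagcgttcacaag
The others are the junctions that tell the RBM4 isoforms apart on the plus strand of chromosome 11, with 15 bases of each exon and the downstream exon in capitals. RBM4 exon 2 is joined to exon 3 (chr11:66643450-66644140, 691 nt) in NM_002896, to exon 4 (chr11:66646027-66646469) in NM_001198843, and to a distal last exon (chr11:66665856-66668374) in NM_001198844. In the read-through isoform NM_001198846 of RBM14-RBM4, exon 1 of the upstream gene RBM14 is joined to RBM4 exon 4.
RBM4 exon 2 to exon 3: acacagagtttcaagGCAAACGAATGCACG
RBM4 exon 2 to exon 4: acacagagtttcaagGTGGGATGTGTGTGG
RBM4 exon 2 to distal exon: acacagagtttcaagGCAAGATAACCCCTG
RBM14 exon 1 to RBM4 exon 4: gtgacgtggtgaaagGTGGGATGTGTGTGG

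Library totals ranged from 31953729 to 37557507 expected counts, and the TMM factors ranged from 0.979 to 1.02. By their effective lengths, the fragments of shScr replicate 2 averaged 231 nt, shorter than the 265 to 281 nt found elsewhere. RBM10 gave 83.2 and 86.2 CPM (counts scaled to library size by TMM) with shScr, 59.8 and 56.4 CPM under shRBM10#1 and 27.2 and 26.9 CPM under shRBM10#2. Of 8 markers of lung epithelium, 7 were above 1 TPM in every library, with a summed level of 22848 to 29030 TPM, while NKX2-1 was at 0 to 0.39 TPM. The leukocyte markers PTPRC and CD3E reached at most 0.05 and 0.11 TPM, whereas CD68, which epithelial lines can also express, was at 76.8 to 116 TPM. Fibroblast and endothelial markers summed to 2.02 to 2.94 TPM and 6.02 to 12.7 TPM.

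On the TPM scale, which allows for transcript length, the 5 expressed genes stood in the same order in every library. KHDRBS1, a KH-domain protein that couples signaling to splicing, was highest at 174 ± 6.91 TPM (SD, n = 6 libraries) and lay above 94.3% of the 14217 genes past the filter. RBM4, an RRM protein with a zinc knuckle, followed at 115 ± 10.95 TPM, above 91.4% of those genes. RBM25, a U1 snRNP-associated factor, was at 39.7 ± 4.71 TPM. TIAL1 was at 25.5 ± 2.51 TPM and TIA1 at 14.2 ± 1.28 TPM, above 67.5% and 53.8% of the genes. No neighbors in this order overlapped: RBM4 ranged from 102 to 128 TPM against 164 to 183 TPM for KHDRBS1, and TIA1 from 12.4 to 16.1 TPM against 22.6 to 28.7 TPM for TIAL1.

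KHDRBS3 and RBM11 were at the limit of detection, and their levels could not be told apart. KHDRBS3 had 4 and 3 counts with shScr, 3 and 5 under shRBM10#1 and 3 and 9 with shRBM10#2. RBM11, whose expression is otherwise largely of brain and testis, had 5 and 8, 2 and 0, and 7 and 6 counts. A count of 0 allows up to 3 counts, or 0.0799 to 0.0939 CPM depending on the library, and this floor covers counting error only. A change in either gene was therefore not detectable at this depth. KHDRBS2, the remaining gene of the Sam68 family, was listed with 0 counts in all 6 libraries, so KHDRBS1 was the family member measured here.

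**Figure D1:**
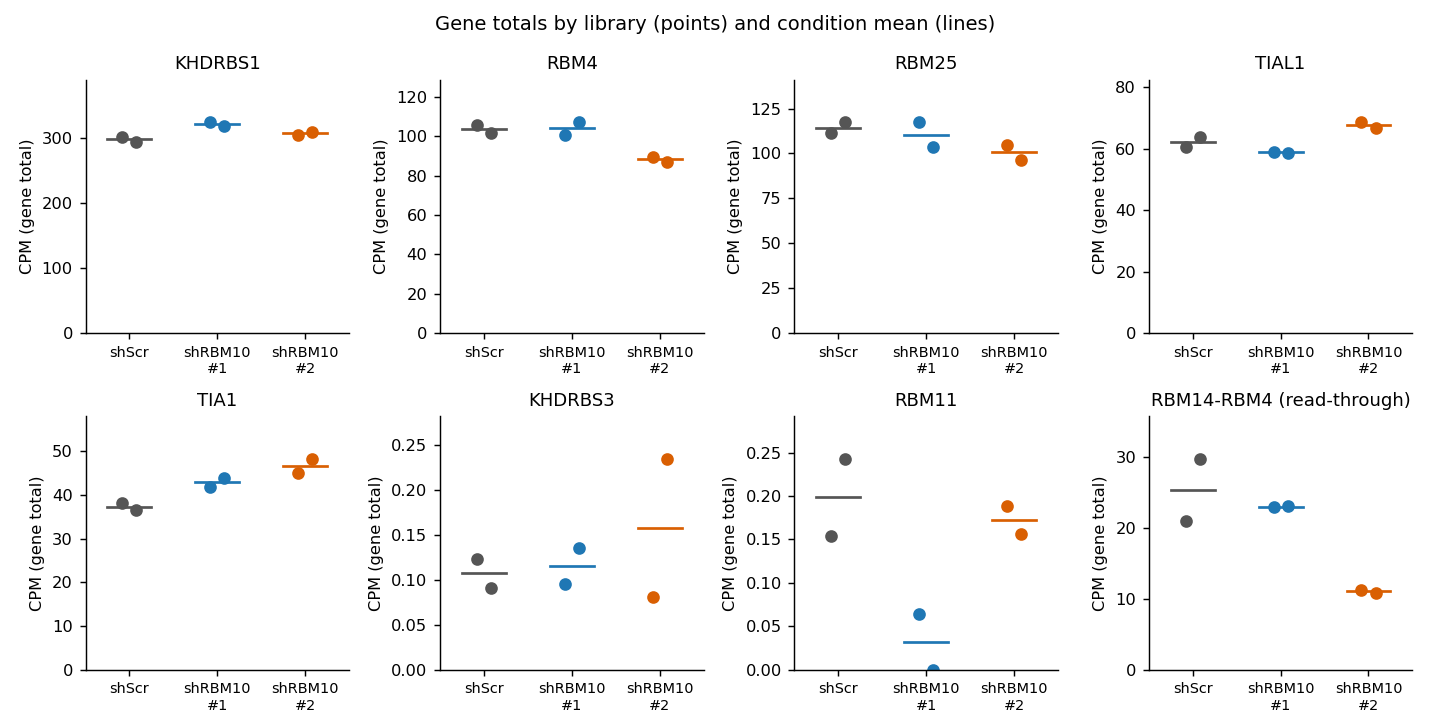
CPM of the gene total (y axis, from 0, with its own scale for each gene) in each library (points) and the mean of each condition (lines), for the 7 genes and for RBM14-RBM4. With shRBM10#2, RBM4 (89.7 and 87.1 CPM) and RBM14-RBM4 (11.3 and 10.9 CPM) lay below both shScr libraries, whereas TIA1 (45.0 and 48.3 CPM) lay above them.

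With the 4 RBM10 KD libraries taken as one group, none of the 5 genes passed an FDR of 0.05 (Benjamini-Hochberg adjustment over all genes of edgeR's quasi-likelihood test), where 1.62% of all genes tested did. The median log2 FC of the 5 genes was 0.026, against 0.0095 over all genes. TIA1 came nearest (log2 FC 0.26, SE 0.0865, edgeR FDR = 0.168) and was the 1 gene of the 5 with an unadjusted p below 0.05, a share not counted over all genes. DESeq2 also called 0 of them, and 718 of all genes. With one coefficient per condition in the same edgeR test, so that the gap between the shRNAs no longer adds to the variance, TIA1 was called (log2 FC 0.26, FDR = 0.0134), 1 of the 5 genes where 18.4% of all genes were. By level, KHDRBS1 and TIA1 were higher in all 4 RBM10 KD libraries than in both shScr libraries. That is 2 of 5 genes, where 29.4% of all genes had their RBM10 KD and shScr libraries apart in this way.

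TIA1 was higher with RBM10 KD, and its rise passed the test with shRBM10#2. It gave 38.1 and 36.5 CPM with shScr, 41.9 and 43.9 CPM under shRBM10#1 and 45.0 and 48.3 CPM under shRBM10#2. The 3 conditions did not overlap. With shRBM10#2 the log2 FC was 0.32 (SE 0.0724, FDR = 0.00693, edgeR), a level 25.1% higher. With shRBM10#1 it was 0.20 (SE 0.0729, FDR = 0.0885, edgeR), which did not pass. The difference between the shRNAs was 0.12 (SE 0.0717, FDR = 0.234, edgeR), so the effects of the shRNAs were not shown to differ. The call with shRBM10#2 was lost without shRBM10#2 replicate 2 (log2 FC 0.27, FDR = 0.122, edgeR) and on log2(TPM + 0.1) with limma (FDR = 0.172). Over all the alternatives its FDR ran from 0.00101 to 0.184.

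TIAL1, the relative of TIA1 with the same kind of U-rich binding, did not follow it. It gave 60.6 and 63.7 CPM with shScr, 58.9 and 58.8 CPM under shRBM10#1 and 68.7 and 66.7 CPM under shRBM10#2. The shRBM10#1 libraries were the lowest and the shRBM10#2 libraries the highest. Against shScr, the log2 FC under shRBM10#1 was −0.08 (SE 0.0664, edgeR FDR = 0.469). Under shRBM10#2 it was 0.12 (SE 0.0658, edgeR FDR = 0.188), and neither passed. The shRNAs themselves differed, by a log2 FC of 0.20 for shRBM10#2 over shRBM10#1 (SE 0.0659, FDR = 0.0389, edgeR). That call did not hold in DESeq2 (FDR = 0.0528), with the replicate number as a block (FDR = 0.0670, edgeR) or with limma on log2(TPM + 0.1) and log2(TPM + 1) (FDR = 0.200 and 0.208). It was also lost with any of the 4 RBM10 KD libraries left out, where the FDR was 0.0676 without shRBM10#1 replicate 1, 0.0716 without shRBM10#1 replicate 2, 0.277 without shRBM10#2 replicate 1 and 0.169 without shRBM10#2 replicate 2.

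RBM4 was lower with shRBM10#2 and not with shRBM10#1. It gave 106 and 102 CPM with shScr, 101 and 107 CPM under shRBM10#1 and 89.7 and 87.1 CPM under shRBM10#2. The shScr and shRBM10#1 libraries overlapped, and the shRBM10#2 libraries lay below all of them. Under shRBM10#1 the log2 FC was 0.0048 (SE 0.0647, edgeR FDR = 0.974). Under shRBM10#2 it was −0.23 (SE 0.0648, edgeR FDR = 0.0209), so that the level fell by 14.8%. The difference between the shRNAs passed as well, at −0.24 (SE 0.0647, FDR = 0.0184, edgeR). Against shScr, the call was lost without shScr replicate 1 (FDR = 0.0975), shRBM10#2 replicate 1 (FDR = 0.129) or shRBM10#2 replicate 2 (FDR = 0.215, edgeR). The difference between the shRNAs was lost without shRBM10#1 replicate 2 (FDR = 0.0621), shRBM10#2 replicate 1 (FDR = 0.122) or shRBM10#2 replicate 2 (FDR = 0.215, edgeR).

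With all 6 libraries in the fit, RBM25 and KHDRBS1 passed in no comparison. RBM25, which binds a CGGGCA element in Bcl-x exon 2 and favors Bcl-xS, gave 111 and 118 CPM with shScr, 117 and 104 CPM under shRBM10#1 and 105 and 96.2 CPM under shRBM10#2. The shRBM10#2 libraries were below both shScr libraries (log2 FC −0.19, SE 0.0761, edgeR FDR = 0.0904). This value was called without shRBM10#1 replicate 1 (FDR = 0.0349, edgeR) or shRBM10#1 replicate 2 (FDR = 0.0345, edgeR), and was −0.12 without shRBM10#2 replicate 2. Between the shRNAs the log2 FC of −0.14 (FDR = 0.213, edgeR) became −0.23 and was called without shRBM10#1 replicate 2 (FDR = 0.0448, edgeR), while it was −0.044 without shRBM10#1 replicate 1 and −0.068 without shRBM10#2 replicate 2. The element is shown here as the site on which RBM25 is known to act, in capitals, at chr20:31721907-31721912 (minus strand, GRCh38).
Bcl-x exon 2: ctgcggtaccggCGGGCAttcagtgacctg
It starts at base 437 of the 694-nt exon and ends 63 nt before the Bcl-xS splice site. It occurs once on the sense strand of the exon, and once on the opposite strand. The same 6 letters stood on the sense strand in 15.4% of the first 694 nt of mature transcript from the start codon of 18249 protein-coding genes, so the match is a description only. KHDRBS1 gave 301 and 294 CPM with shScr, 324 and 318 CPM under shRBM10#1 and 304 and 309 CPM under shRBM10#2. All RBM10 KD libraries were above the shScr libraries, but by little. The log2 FC was 0.11 under shRBM10#1 (edgeR FDR = 0.264) and 0.042 under shRBM10#2 (edgeR FDR = 0.649), each with an SE of 0.0605. The direction with shRBM10#2 was not stable, since on log2(TPM + 1) it was −0.015.

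Counted over the comparisons, 0 of 5 genes passed with shRBM10#1, where 14% of all genes did, 7.13% higher and 6.91% lower. DESeq2 called 0 of the 5 there, and 1723 of all genes. With shRBM10#2, 2 of 5 passed, 1 higher and 1 lower, where 25.9% of all genes did, 12% higher and 13.9% lower. An unadjusted edgeR p below 0.05 was found for 1 of the 5 with shRBM10#1 and 3 with shRBM10#2. The share of all genes at that p was not counted. Between the shRNAs, 2 of 5 passed, again 1 in each direction, where 25.5% did, 11% higher and 14.5% lower. With 5 genes tested, nothing particular to them is read from 2 calls. The median size of the log2 FC with shRBM10#2 was 0.19 in the 5 genes and 0.19 over all genes. None of the 5 gene totals met the fold criterion of the study, an absolute log2 FC above 1, which the study set for isoforms. With shRBM10#2, 185 of all genes passed both this criterion and the FDR of 0.05. Both shRNAs were compared with the same 2 shScr libraries.

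**Figure D2:**
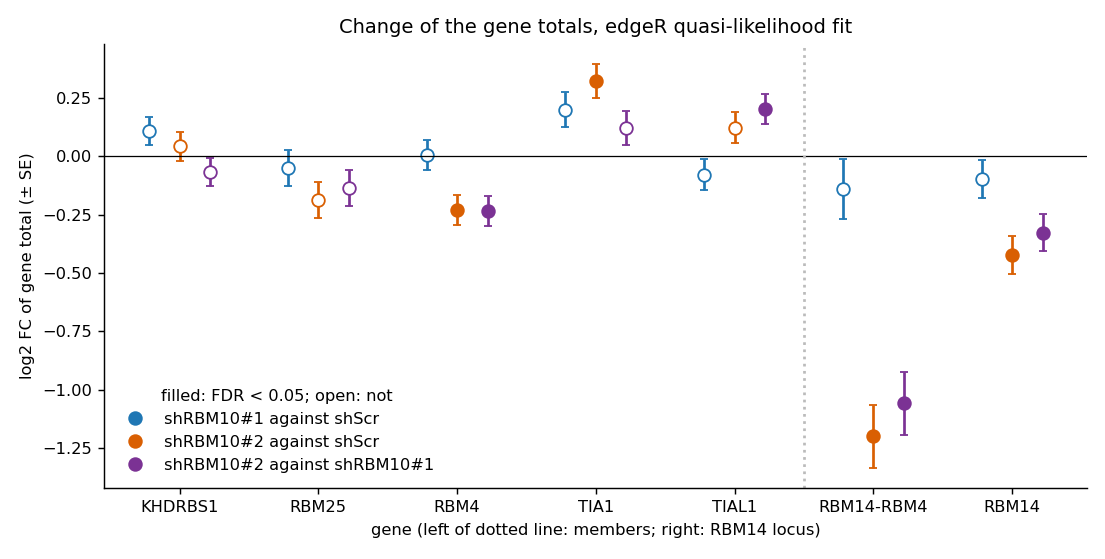
Log2 FC of the gene totals (y axis, bars are SE of the edgeR fit) for each expressed member and, right of the dotted line, RBM14-RBM4 and RBM14; filled points passed an FDR of 0.05. Among the members the filled points are TIA1 (0.32) and RBM4 (−0.23) with shRBM10#2, and RBM4 (−0.24) and TIAL1 (0.20) between the shRNAs, while RBM14-RBM4 reached −1.20.

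RBM4 shares its locus with the genes on either side, and the fall in gene total passed the test for the read-through RBM14-RBM4 and for RBM14 as well. The gene lies at chr11:66638617-66668374 on the plus strand, downstream of RBM14 (chr11:66616582-66627347). RBM14-RBM4 gave 21.0 and 29.8 CPM with shScr, 23.0 and 23.1 CPM under shRBM10#1 and 11.3 and 10.9 CPM under shRBM10#2. The shRBM10#2 libraries lay far below the other 4. The log2 FC under shRBM10#2 was −1.20 (SE 0.135, edgeR FDR = 1.57e-04). Under shRBM10#1 it was −0.14 (SE 0.128, edgeR FDR = 0.509), and the shRNAs differed by −1.06 (FDR = 3.40e-04, edgeR). These are gene totals, and isoform NM_001198846 made up 98.05% to 100% of the TPM of RBM14-RBM4. In the isoform fit it did not pass with shRBM10#2 (log2 FC −1.17, SE 0.191, FDR = 0.0517, edgeR). Nor did it pass between the shRNAs (log2 FC −1.05, FDR = 0.0602, edgeR). With each library left out in turn the log2 FC of the gene total with shRBM10#2 stayed between −1.43 and −0.92. With shRBM10#1 it was 0.13 without shScr replicate 2, and −0.37 without shScr replicate 1 (FDR = 0.0353, edgeR), so the sign and the call of that value rest on 1 library. RBM14, which encodes a nuclear coactivator, gave 97.4 and 92.3 CPM with shScr, 96.3 and 81.3 CPM under shRBM10#1 and 70.0 and 71.4 CPM under shRBM10#2. Its log2 FC with shRBM10#2 was −0.42 (SE 0.0801, FDR = 0.00285, edgeR).

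Of the 829 bases of the read-through isoform, 388 lie in RBM14 exon 1 and 441 in RBM4 exon 4, so only reads across the junction printed above are its own, and RSEM divided the rest. RBM4 and the read-through were therefore also summed. Together they gave 127 and 132 CPM with shScr, 124 and 130 CPM under shRBM10#1 and 101 and 98.0 CPM under shRBM10#2. The read-through made up 16.6% and 22.7% of the sum with shScr, 18.6% and 17.7% with shRBM10#1, and 11.1% in each shRBM10#2 library. The sum fell by 0.38 on the log2 scale with shRBM10#2 (FDR = 0.0015, edgeR), more than the 0.23 of RBM4 alone, and by 0.35 relative to shRBM10#1 (FDR = 0.00208, edgeR). It also holds read-through counts from RBM14 exon 1, so its fall is not that of RBM4 sequence only. RBM4B, the paralog on the opposite strand, gave 13.7 to 17.9 CPM over the libraries and passed in no comparison. Whether the libraries kept the strand is not given in the sources used here, and 590 of the 2519 bases of the distal RBM4 exon also lie in annotated RBM4B exons. Reads there cannot be told apart without strand.

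**Figure D3:**
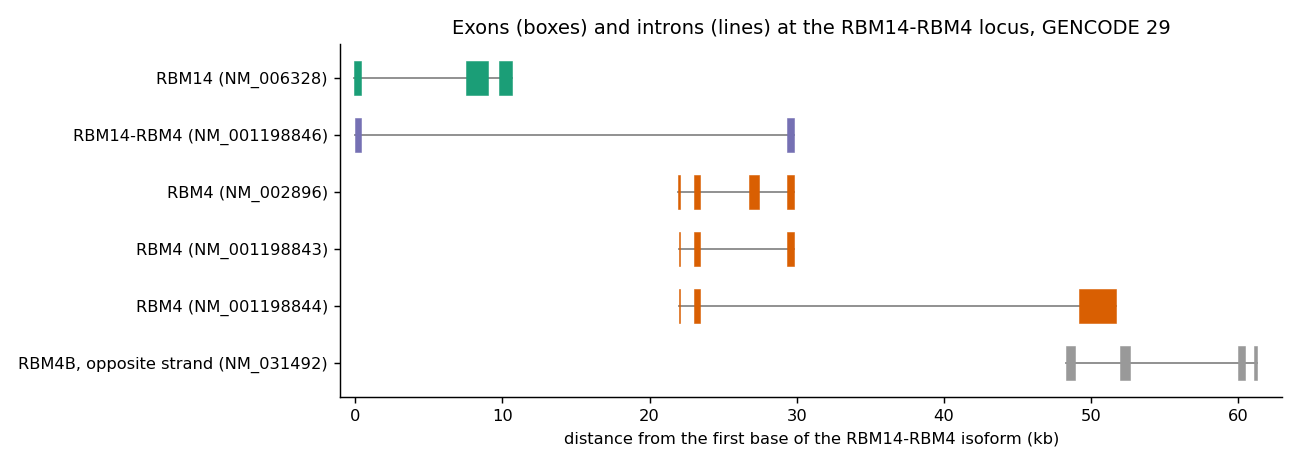
Exons (boxes) and introns (lines) of the RefSeq isoforms at the RBM4 locus as GENCODE 29 places them, with distance in kb from the first base of the RBM14-RBM4 isoform on the x axis. RBM14-RBM4 joins exon 1 of RBM14 to exon 4 of RBM4, and the distal exon of NM_001198844 (2519 nt) lies between exons of NM_031492, the 1 RBM4B isoform drawn, although 590 of its bases lie in exons of other annotated RBM4B transcripts.

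Within RBM4, the full-length isoform fell and the distal-exon isoform was higher with shRBM10#2. NM_002896, which encodes the 364-residue protein, gave 78.8 and 85.9 TPM with shScr, 77.3 and 76.4 TPM under shRBM10#1 and 60.5 and 56.4 TPM under shRBM10#2. NM_001198844, which encodes 173 residues, gave 3.85 and 4.68 TPM, 4.45 and 3.68 TPM, and 7.02 and 6.28 TPM. NM_001198843, which skips exon 3 and encodes 143 residues, gave 38.2 and 37.1 TPM, 32.3 and 42.8 TPM, and 34.8 and 38.9 TPM. The shRBM10#2 libraries were apart from the other 4 for the first and second of these isoforms and overlapped them for the third.

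At the isoform level, NM_002896 was the 1 of 12 isoforms called with shRBM10#2, at a log2 FC of −0.44 (SE 0.0556, edgeR FDR = 0.0396), where 2.26% of all isoforms were called. It also differed between the shRNAs, by −0.42 (FDR = 0.0418, edgeR), a call that was not checked with the alternatives. The call against shScr was lost without any 1 of the 6 libraries. The FDR was then 0.131 without shScr replicate 1, 0.127 without shScr replicate 2, 0.0586 and 0.058 without shRBM10#1 replicate 1 and replicate 2, and 0.224 and 0.236 without shRBM10#2 replicate 1 and replicate 2, while the log2 FC stayed between −0.49 and −0.40. NM_001198844, singled out after its values were seen, showed a log2 FC of 0.71 in edgeR (SE 0.142, FDR = 0.0700), 0.71 in DESeq2 (FDR = 3.45e-04, where 17.7% of all isoforms were called) and 0.72 in edgeR with at least 10 counts in every library (FDR = 0.0447). Its FDR over all the alternatives ran from 3.45e-04 to 0.303. With shRBM10#1, 0 of the 12 isoforms were called, where 0.0302% of all isoforms were. In the pooled comparison 0 were called, where 0% of all isoforms were. DESeq2 called 0 of the 12 in both of these comparisons. An unadjusted edgeR p below 0.05 was found for 0 of the 12 with shRBM10#1, where 3832 of the 26464 isoforms tested had one. In the pooled comparison 1 of the 12 had one, where 2875 of all did. With shRBM10#2 it was 5 of the 12, where 5699 of all had one.

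As shares of RBM4 TPM, NM_002896 made up 65.2% and 67.3% with shScr, 67.8% and 62.2% with shRBM10#1, and 59.1% and 55.5% with shRBM10#2. The share of NM_001198844 was 3.18% and 3.66%, 3.90% and 2.99%, and 6.86% and 6.18%. In the test of isoform usage, in which each isoform is compared with the rest of its gene, RBM4 did not pass with shRBM10#2 (log2 usage change 0.94 for NM_001198844 and −0.21 for NM_002896, edgeR FDR = 0.665). With limma's diffSplice it did (FDR = 0.0120), where 6.35% of all genes were called. No member gene was called for usage by edgeR in any comparison, and none had an unadjusted Simes p below 0.05, a share not counted over all genes. Of all genes, 0.25% were called for usage in the pooled comparison, 0.25% under shRBM10#1 and 1.9% under shRBM10#2.

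TIAL1 held more of the isoform with the 51-nt segment in 3 of the 4 RBM10 KD libraries. NM_001033925 made up 35.4% and 30.3% of TIAL1 TPM with shScr, 34.6% and 50.2% with shRBM10#1, and 46.0% and 44.5% with shRBM10#2. The shRBM10#2 libraries lay above shScr, while shRBM10#1 replicate 1 lay within it and shRBM10#1 replicate 2 was the highest. The shRBM10#1 libraries were thus further apart than the means of shScr and shRBM10#2. TIAL1 usage did not pass with shRBM10#2 (edgeR FDR = 0.816), nor with limma's diffSplice (FDR = 0.0914). Singled out after its values were seen, the isoform was called with shRBM10#2 in DESeq2 (log2 FC 0.59, FDR = 0.0140) and not in edgeR (log2 FC 0.59, FDR = 0.156).

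The TIA1 isoform without the 33-nt exon, NM_022037, gave 14.4% and 10.7% of TIA1 TPM with shScr, 13.5% and 21.5% with shRBM10#1, and 14.1% and 16.0% with shRBM10#2. These ranges overlapped, and usage did not pass. The long isoform NM_022173 carried most of the gene, at 10.6 and 12.2 TPM, 12.02 and 11.1 TPM, and 13.0 and 13.6 TPM. DESeq2 called it with shRBM10#2 (log2 FC 0.28, FDR = 0.00235), whereas edgeR gave the same log2 FC at an FDR of 0.0812. KHDRBS1 came almost wholly from NM_006559, at 93.9% to 96.9% of its TPM. NM_001271878 lacks 117 nt at chr1:32031524-32031640, within the part that encodes the KH domain, and made up 0.96% to 3.18%. The noncoding isoforms NR_073498 and NR_073499 each made up between 0.99% and 1.68%, and the conditions overlapped for NR_073498. NR_073499, singled out after its values were seen, was at 1.06% and 0.99% with shScr. It was at 1.21% and 1.42% with shRBM10#1 and 1.66% and 1.43% with shRBM10#2, where it was not called (log2 FC 0.64, FDR = 0.186, edgeR). RBM25, KHDRBS3 and RBM11 each have 1 isoform in the files.

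**Figure D4:**
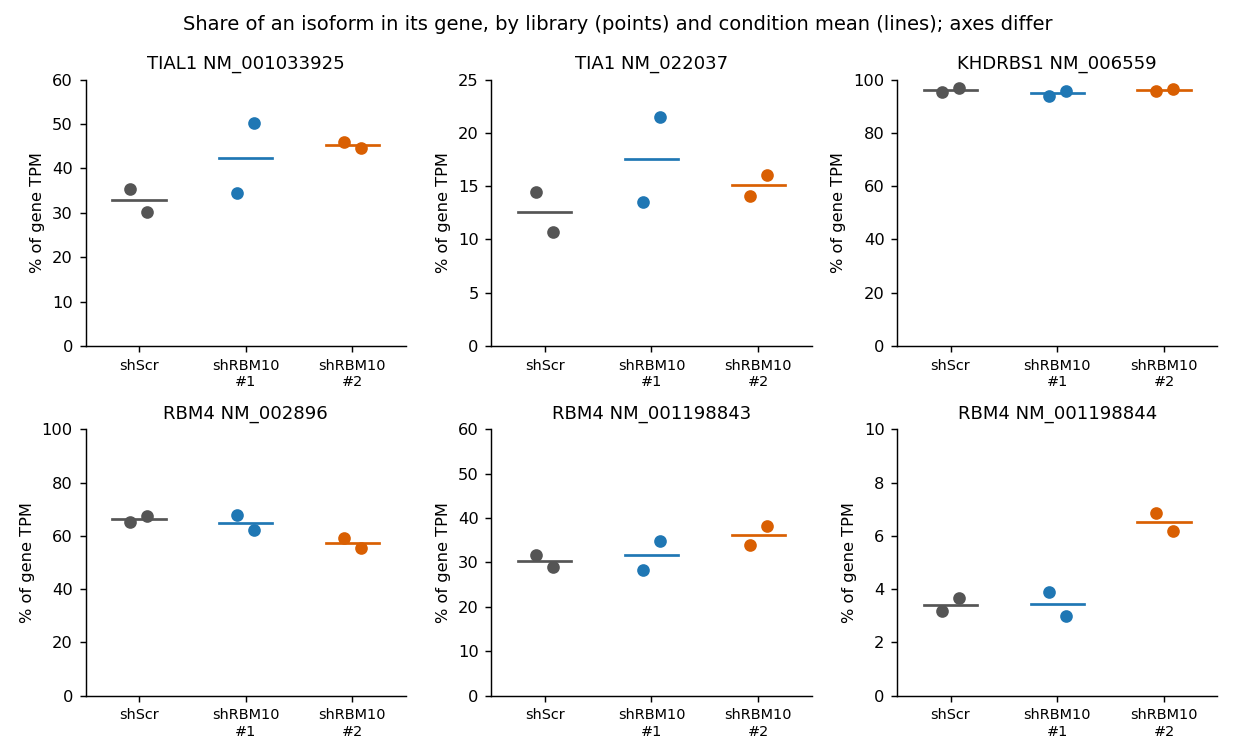
Percent of the gene's TPM given by an isoform (y axis from 0, scale differing between panels) in each library (points), with condition means (lines). The share of RBM4 NM_001198844 was 6.86% and 6.18% with shRBM10#2 and at most 3.90% elsewhere, whereas the shRBM10#1 libraries were at 34.6% and 50.2% for TIAL1 NM_001033925.

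The gene total of Bcl-x itself was lower with both shRNAs. BCL2L1 gave 235 and 229 CPM with shScr, 173 and 175 CPM under shRBM10#1 and 168 in each shRBM10#2 library. Its log2 FC was −0.41 under shRBM10#1 (edgeR FDR = 6.71e-04) and −0.46 under shRBM10#2 (edgeR FDR = 3.82e-04). The ratio of Bcl-xS to Bcl-xL TPM was 0.0974 and 0.0843 with shScr, 0.0597 and 0.0489 under shRBM10#1 and 0.0768 and 0.0641 with shRBM10#2. The 4 RBM10 KD libraries lay below both shScr libraries. The paper also reports a lower ratio in PC-9 cells with RBM10 KD by qRT-PCR. In the isoform fit the log2 FC of Bcl-xS and Bcl-xL was −1.12 and −0.37 with shRBM10#1, and −0.80 and −0.43 with shRBM10#2. Of these only Bcl-xL with shRBM10#2 passed (FDR = 0.0377, edgeR). In edgeR's test of isoform usage, however, BCL2L1 passed in no comparison. The log2 usage change of Bcl-xS was −0.70 with shRBM10#1 (edgeR FDR = 1) and −0.34 with shRBM10#2 (edgeR FDR = 1), and the difference between the shRNAs in this ratio was not tested.

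A wider list of 16 genes with reported roles in Bcl-x splicing or in 5′ splice site choice (SR proteins, TRA2 proteins, hnRNPs, PTBP1, SF3B1, RBM5 and RBM6) was read beside them. In the pooled comparison 0 of the 16 were called by edgeR, where 1.62% of all genes were. DESeq2 called 0 of the 16, and 718 of all genes. Of the 16, 3 had an unadjusted edgeR p below 0.05, but the share of all genes at that p was not counted. With one coefficient per condition 3 were called, where 18.4% of all genes were. With shRBM10#1, 1 rose and 1 fell, where 14% of all genes were called, and with shRBM10#2, 1 rose and 4 fell, where 25.9% were. The shares of the list called with each shRNA were near those of all genes. The median log2 FC of the list was 0.052 and 0.014, against 0.0079 and 0.0054 over all genes. RBM5, the paralog of RBM10, passed the test with both shRNAs and was higher, from 24.2 and 23.6 CPM to 26.9 and 31.8 CPM with shRBM10#1 (log2 FC 0.30, FDR = 0.0410, edgeR) and to 31.0 and 31.4 CPM with shRBM10#2 (log2 FC 0.38, FDR = 0.00757, edgeR). The call of RBM5 under shRBM10#1 was lost in DESeq2 (FDR = 0.0666), with the replicate block (FDR = 0.0510, edgeR), with limma on log2(TPM + 0.1) and log2(TPM + 1) (FDR = 0.394 and 0.413) and with any 1 library other than shRBM10#1 replicate 1 left out (FDR = 0.0798 to 0.277, edgeR). The log2 FC was then 0.17 without shRBM10#1 replicate 2 and 0.41 without shRBM10#1 replicate 1. Under shRBM10#2 its call was lost without shRBM10#2 replicate 1 (FDR = 0.0567, edgeR) or replicate 2 (FDR = 0.0768, edgeR) and with limma (FDR = 0.0993 and 0.112). TRA2A, an activator of exon inclusion, fell with both, from 46.9 and 44.3 CPM to 37.98 and 37.9 CPM (log2 FC −0.26, FDR = 0.0241, edgeR) and to 39.4 and 38.5 CPM (log2 FC −0.23, FDR = 0.0290, edgeR). Its call with shRBM10#1 was lost without shScr replicate 1, shRBM10#1 replicate 2 or either shRBM10#2 library (FDR = 0.0643 to 0.102, edgeR). With shRBM10#2 it was lost without shScr replicate 1 or either shRBM10#2 library (FDR = 0.131 to 0.230, edgeR) and with limma at either pseudocount (FDR = 0.0594 and 0.0595). The others that fell with shRBM10#2, named after their values were seen, were HNRNPH1 (log2 FC −0.34), SRSF9 (−0.26) and PTBP1 (−0.23). SRSF9 and PTBP1 were also the 2 of the list that were lower with shRBM10#2 than with shRBM10#1. The count of the list called fell with either shRNA when 1 shScr library or 1 shRBM10#2 library was left out. With shRBM10#1 it also fell without shRBM10#1 replicate 2. In each of these fits fewer of all genes were called as well.

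For each expressed member, the gene with the most similar log2 CPM over the 6 libraries was sought among the other 14216 genes. It was TCF7L1 for KHDRBS1 (Pearson's r = 0.992), SDHAP2 for RBM25 (0.992), GPSM3 for RBM4 (0.996), RNF181 for TIA1 (0.996) and WHAMMP3 for TIAL1 (0.997). Between 47 and 174 genes per member exceeded 0.95. These values describe 6 libraries in 3 conditions, which share their scaling and fall into clusters, and no p-value was attached to them.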

How the data were processed

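PC-9 RNA-Seq libraries (3 conditions, 2 each) were analyzed, grouped by the labels. The submitters' processing notes name STAR 2.4, RSEM 1.2.29, edgeR and hg19; the order and strand are not given in the sources used here. The authors deposited, per RefSeq isoform, the expected count (reads shared by isoforms are split), TPM (corrected for effective length) and the percent of the gene's TPM from each isoform. FPKM was deposited but not used.

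Expected counts were summed per gene, rounded, TMM scaled, filtered with filterByExpr and tested with the quasi-likelihood test of edgeR 4.0.16 (R 4.3.3), two-sided, with Benjamini-Hochberg adjustment; FDR below 0.05 was called. The pooled comparison had 1 coefficient for all RBM10 KD libraries; the others came from 1 fit of 3 conditions. No block was used, as the methods name none. Usage was tested with diffSpliceDGE (6405 genes). Procedures were tested on simulated data. DESeq2 1.42.0, limma 3.58.1, other filters, the fold criterion, a replicate block and each library left out were alternatives. Replicates differed by more than sampling noise (chi-square per degree of freedom 3.16 to 11.9). Members and gene lists were chosen with earlier results of these data known. Named were all members, their isoforms (fold changes for called isoforms), their neighbors at the RBM4 locus and in the Sam68 family, RBM10, BCL2L1, listed regulators called with both shRNAs, and the most similar gene of each member; others are marked as chosen after their values were seen. Sequences came from GENCODE 29. 1 gene of the wider regulator list is not reported here.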

Additional observations from a re-analysis of the deposited data

Results flagged for a closer look

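RBM4 differed between the shRNAs. The log2 FC of its gene total for shRBM10#2 against shRBM10#1 was −0.235, with both shRBM10#2 libraries (89.7 and 87.1 CPM) below both shRBM10#1 libraries (101 and 107 CPM). Its full-length isoform NM_002896 differed by −0.423, a call that was not checked with the alternatives. TIAL1 differed by 0.203, with 68.7 and 66.7 CPM against 58.9 and 58.8 CPM. Each was past an FDR of 0.05 in the edgeR test of the difference itself, between 2 libraries and 2 libraries. Of all gene totals, 25.5% were called in that comparison. The TIAL1 call did not hold in DESeq2 (FDR = 0.0528), with the replicate block or with limma. Both gene-total calls were lost in some of the fits with 1 library left out. RBM10 was also lower with shRBM10#2 than with shRBM10#1, and the part of this in the differences was not tested.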

How the results depend on the processing

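The counts of called members changed with the processing in 27 cases and were taken as the same in 96. Taken as the same were equal counts and small relative changes between counts above 0. Of the 5 member genes, 1 was called in the pooled comparison with one coefficient per condition, where 18.4% of all genes were. With shRBM10#2, 0 were called with the fold criterion, which 185 of all genes met. Limma called 1 on log2(TPM + 0.1) or log2(TPM + 1), and 1743 and 1651 of all genes. Between the shRNAs, 0 were called with the fold criterion, which 169 of all genes met. DESeq2 called 1, and 3145 of all genes. The replicate block called 1 and lost TIAL1, where 3175 of all genes were called. Limma called 0 on log2(TPM + 0.1) or log2(TPM + 1), and 1359 and 1264 of all genes. Of the 12 isoforms, with shRBM10#2, 0 were called with the fold criterion, which 130 of all isoforms met. DESeq2 called 4, where it called 17.7% of all isoforms. With at least 10 counts in every library 2 were called, where 1647 of all isoforms were. With the replicate block 0 were called, where 0 of all isoforms were. For usage with shRBM10#2, limma's diffSplice called 1 member gene, where 6.35% of all genes were called. With each library left out, the member genes called ranged from 0 to 3 with shRBM10#2 and from 0 to 2 between the shRNAs, and the isoforms were 0 each time. The number of all genes called moved with that of the member genes in these fits. With shRBM10#2 it was highest in the fits with 3 member calls and lowest in the fit with 0. Fewer of all isoforms were also called with shRBM10#2 in each of these fits than with all libraries. The causes of the changed counts were not tested, except that fewer libraries enter the fits that leave 1 out.

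The replicate numbers did not pair the libraries: same-numbered libraries had correlations of their deviations of −0.0038, −0.019 and −0.014. The replicate block changed no other count of members.

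The values that changed sign were uncalled as reported. TIAL1 in the pooled comparison was −0.058 and −0.056 on log2(TPM + 0.1) and log2(TPM + 1), and −0.015 to 0.062 with 1 library left out, including −0.0095 and −0.0025. RBM4 with shRBM10#1 was −0.0042 with 10 counts required in each library, −0.070 and −0.069 on the TPM scales, −0.023 with the read-through added, and −0.040 to 0.050 with 1 library left out. RBM25 with shRBM10#1 ranged from −0.14 to 0.040, the latter without shRBM10#1 replicate 2. KHDRBS1 with shRBM10#2 was −0.015 on both TPM scales. NM_002896 with shRBM10#1 ranged from −0.037 to 0.0096, and was 0.0026 without shRBM10#1 replicate 1. With alternatives applied after seeing the data, RBM14-RBM4 with shRBM10#1 ranged from −0.37 to 0.13 and RBM14 from −0.22 to 0.023, with RBM14 called (FDR = 0.0476, edgeR) without shRBM10#1 replicate 1. With 2 libraries per condition, changes below about the size of the called ones may go undetected, and KHDRBS3 and RBM11 were too low for a test.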
